A study of Mus musculus with 20 samples.

Results

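Genes of transforming growth factor beta (TGF-beta) signaling were chosen by symbol from the table of counts, by their roles as ligands, receptors, SMAD proteins, anchoring proteins and an induced protein. They were *Tgfb1*, *Tgfb2*, *Tgfbr1*, *Tgfbr2*, *Smad2*, *Smad3*, *Smad7*, *Lrrc33* (listed under its other symbol, *Nrros*), *Ltbp1* and *Tgfbi*. All 10 were among the 39017 genes of the table, and each had counts. Adult male C57BL/6 mice (C57BL/6J in the study's methods), 3 to 4 months old, had either lateral fluid percussion injury (FPI), in which a pulse of fluid strikes the dura exposed by craniectomy, or sham surgery without the pulse. At 7 days, cells of the forebrain on the side of surgery were sorted into microglia (CD11b+ with intermediate CD45) and astrocytes (positive for the surface antigen ACSA-2), and total RNA was sequenced. Each of the 4 groups, sham and FPI microglia and sham and FPI astrocytes, had 5 libraries, 20 in all, with 1 mouse to a library. The pulse harms the cortex beneath the craniectomy and axons at a distance, and as the whole ipsilateral forebrain was taken, cells near and far from the lesion were mixed.

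TGF-beta is secreted in a latent form, bound to its own propeptide and held by an anchoring protein until integrins or proteases free it. The freed ligand binds TGFBR2, which recruits and phosphorylates TGFBR1, and TGFBR1 then phosphorylates SMAD2 and SMAD3, which enter the nucleus with SMAD4 to regulate transcription. SMAD7 is induced by the pathway and blocks it at the receptor. In the brain, TGF-beta signaling is known to maintain the resting identity of microglia, and LRRC33 is the protein that anchors latent TGF-beta1 on microglia and macrophages.

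Library totals ran from 5623349 to 13110857 counts. Expression levels are in CPM, that is, counts brought to a common library total with TMM factors over the 20 libraries. The labels of the cell types were checked against markers: 10 of 10 microglial markers were higher and 10 of 10 astrocytic markers were lower in microglia than in astrocytes, in sham and in FPI mice. The astrocyte libraries also held RNA of other cells. Summed over 10 markers each, oligodendrocyte markers came to 1933 to 20640 CPM and mural cell and fibroblast markers to 391 to 9031 CPM there, beside 10910 to 33820 CPM for the astrocytic markers. By the animal numbers in the library names, 3 mice gave a library of each cell type, and FPI astrocyte libraries 2 and 5 carry the same number. The name of FPI astrocyte library 5 has the microglial suffix, while its 10 microglial markers summed to 166 CPM against 17640 to 27670 CPM in FPI microglia. In bulk libraries, more cells of a type and more RNA per cell cannot be told apart.

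The members were first compared between the cell types, in 1 edgeR quasi-likelihood fit of all 20 libraries, with calls at an adjusted p under 0.1 and a log2 fold change over 0.6 in either direction. Of the ligands, *Tgfb1* was higher in microglia and *Tgfb2* was higher in astrocytes. In sham microglia 1 to 5, *Tgfb1*, which encodes TGF-beta1, stood at 344.5, 324.9, 315.0, 290.3 and 330.9 CPM. In sham astrocytes 1 to 5 it stood at 6.37, 8.19, 6.69, 5.03 and 13.8 CPM. Every microglia library thus lay far above every astrocyte library, a 40.1-fold difference (log2 fold change 5.33, SE 0.43, edgeR adjusted p = 6.75e-10). *Tgfb2*, which encodes TGF-beta2, stood at 0.875, 2.78, 0, 1.82 and 1.33 CPM in sham microglia, where sham library 3 had no count. In sham astrocytes it stood at 57.0, 52.4, 41.7, 20.1 and 39.2 CPM, again without overlap but in the other direction (log2 fold change -4.88, SE 0.51, edgeR adjusted p = 3.40e-08). The difference had the same direction in FPI mice, at 4.36 for *Tgfb1* (SE 0.41) and -4.17 for *Tgfb2* (SE 0.49) on the log2 scale. Within a sham library the log2 ratio of *Tgfb1* to *Tgfb2* counts was 8.35 ± 1.84 in microglia and -2.38 ± 0.641 in astrocytes (mean ± SD, n = 5 each, exact permutation test, two-sided, p = 0.00794, the smallest this design gives, adjusted p = 0.0179 over 9 tests of ratios).

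The sequences before the start of transcription are shown for these 2 ligands because they are opposite in cell type. They are the 250 bases before the RefSeq start on GRCm38.p6, read 5′ to 3′ on the strand of the gene. *Tgfb1* lies on chromosome 7 (plus strand, window chr7:25686752-25687001) and *Tgfb2* on chromosome 1 (minus strand, window chr1:186705990-186706239). Capitals mark every match, on either strand, to GAGGAA (an ETS core of the type that PU.1 binds), CAGAC (a SMAD-binding box), GTCTAGAC (the palindromic SMAD-binding element) or GGGCGG (a GC box).
Tgfb1: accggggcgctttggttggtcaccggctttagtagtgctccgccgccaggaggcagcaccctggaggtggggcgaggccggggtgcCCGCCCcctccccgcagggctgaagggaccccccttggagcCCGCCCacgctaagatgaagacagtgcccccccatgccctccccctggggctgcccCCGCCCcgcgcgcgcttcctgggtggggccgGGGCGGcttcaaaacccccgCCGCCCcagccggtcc
Tgfb2: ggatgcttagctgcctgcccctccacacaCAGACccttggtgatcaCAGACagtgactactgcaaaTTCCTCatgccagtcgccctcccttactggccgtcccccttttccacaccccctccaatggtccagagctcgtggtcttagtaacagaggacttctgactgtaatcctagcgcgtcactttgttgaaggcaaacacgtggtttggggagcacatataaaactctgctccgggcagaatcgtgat
The *Tgfb1* window held 5 GC boxes and none of the other motifs, and the *Tgfb2* window held 2 SMAD-binding boxes and 1 ETS core but no GC box. Of 32851 promoter windows of this length, 32.7% held a GC box, 42.2% a SMAD-binding box, 23.3% the ETS core and 0.167% the palindrome. A match is a match of letters and says nothing of binding in these cells.

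*Tgfbr1*, the type I receptor kinase, had the smallest p of all 15077 genes tested between microglia and astrocytes, in sham and again in FPI mice. Sham microglia 1 to 5 held it at 1851, 1876, 1780, 1971 and 1910 CPM, and sham astrocytes 1 to 5 at 31.5, 26.2, 20.6, 26.2 and 30.8 CPM. Both groups were tight and far apart (log2 fold change 6.12, SE 0.21, edgeR adjusted p = 2.23e-14). *Tgfbr2*, the type II receptor that binds the ligand, stood at 806 to 844 CPM in sham microglia and at 18.99, 45.3, 21.8, 37.2 and 56.9 CPM in sham astrocytes (log2 fold change 4.52, SE 0.40, adjusted p = 3.66e-09). The astrocyte libraries were uneven in *Tgfbr2*, whereas the microglia libraries were nearly equal. In FPI mice the differences were 5.54 for *Tgfbr1* (SE 0.20) and 4.21 for *Tgfbr2* (SE 0.40) on the log2 scale. The type I to type II log2 ratio of counts was 1.18 ± 0.0445 in sham microglia and -0.31 ± 0.654 in sham astrocytes (mean ± SD, n = 5 each, exact permutation test, adjusted p = 0.0179).

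The window before *Tgfbr1* (chromosome 4, plus strand, chr4:47352972-47353221) is shown with the same capitals because this gene separated the cell types with the smallest p.
Tgfbr1: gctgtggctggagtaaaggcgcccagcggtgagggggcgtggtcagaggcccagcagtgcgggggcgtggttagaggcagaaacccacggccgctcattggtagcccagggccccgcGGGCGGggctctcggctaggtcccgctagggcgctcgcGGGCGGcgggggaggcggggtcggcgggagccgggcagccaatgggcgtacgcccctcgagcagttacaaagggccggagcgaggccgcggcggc
It held 2 GC boxes and none of the other motifs, while the window of *Tgfbr2* held 1 ETS core and 1 SMAD-binding box.

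The SMAD genes that transduce the signal differed between the cell types by less than the receptors did. *Smad3* stood at 203.7, 177.5, 205.2, 214.2 and 180.1 CPM in sham microglia and at 38.9, 23.9, 32.0, 18.2 and 25.9 CPM in sham astrocytes (log2 fold change 2.82, SE 0.20, edgeR adjusted p = 9.39e-11). *Smad2*, its close relative, stood at 39.6 to 53.7 CPM in sham microglia and 18.6 to 25.5 CPM in sham astrocytes (1.07, SE 0.14, adjusted p = 1.06e-06). Neither gene overlapped between the cell types. The pair was therefore unequal in microglia and near parity in astrocytes: the log2 ratio of *Smad2* to *Smad3* counts was -2.08 ± 0.232 in sham microglia and -0.29 ± 0.286 in sham astrocytes (exact permutation test, adjusted p = 0.0179). *Smad7*, the inhibitory SMAD, stood at 228 to 361 CPM in sham microglia and 28.2 to 176 CPM in sham astrocytes (1.69, SE 0.36, adjusted p = 3.19e-04).

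The window before *Smad3* (chromosome 9, minus strand, chr9:63757995-63758244) is shown because *Smad3* is also the member with the smallest p for FPI in microglia.
Smad3: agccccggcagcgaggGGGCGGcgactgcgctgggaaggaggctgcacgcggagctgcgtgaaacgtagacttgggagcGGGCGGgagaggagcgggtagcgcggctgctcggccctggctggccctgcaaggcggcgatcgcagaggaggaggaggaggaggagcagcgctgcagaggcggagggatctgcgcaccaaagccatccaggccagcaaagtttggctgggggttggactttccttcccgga
It held 2 GC boxes and none of the other motifs.

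The genes of the anchoring proteins were opposite in cell type. *Lrrc33* stood at 120 to 156 CPM in sham microglia and at 13.3, 5.23, 12.5, 3.59 and 2.53 CPM in sham astrocytes (log2 fold change 4.20, SE 0.42, edgeR adjusted p = 2.17e-08). *Ltbp1*, which fixes latent TGF-beta in the extracellular matrix, stood at 36.6 to 87.5 CPM in sham astrocytes, and in sham microglia 3 of 5 libraries had no count and the others 0.805 and 0.896 CPM (-7.30, SE 0.70, adjusted p = 1.12e-08). It passed the filter on low counts only through the astrocyte libraries, which bears on its direction. *Tgfbi*, a matrix protein named for its induction by TGF-beta, stood at 91.8, 73.8, 88.7, 40.6 and 45.1 CPM in sham microglia and 6.27 to 35.4 CPM in sham astrocytes (1.77, SE 0.38, adjusted p = 4.09e-04). All 10 members were thus called between sham microglia and sham astrocytes, 8 higher and 2 lower in microglia, where 25.3% of all genes were called higher and 35.6% lower. The groups did not overlap for any of the 10, against 23.0% of all genes with microglia above and 29.1% with microglia below. In FPI mice all 10 were called again, with the same directions (25.9% of all genes higher and 35.0% lower), and *Tgfbi* alone overlapped, against 20.6% of genes with microglia above and 26.6% with microglia below.

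**Figure D1:**
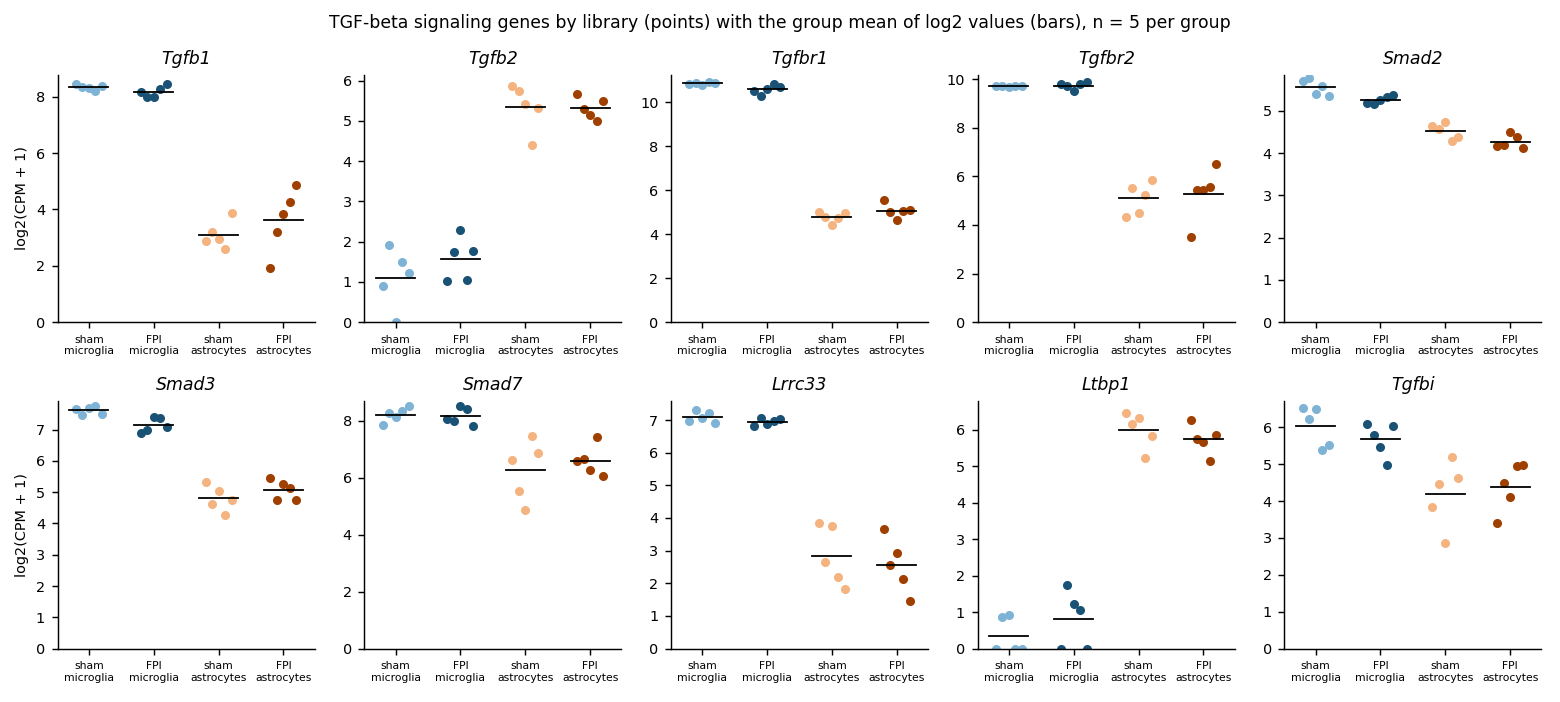
Level of each of the 10 genes on a log2(CPM + 1) axis in the 20 libraries, in columns of sham microglia, FPI microglia, sham astrocytes and FPI astrocytes; points are libraries and bars are means of the log2 values, n = 5 each. *Tgfb2* and *Ltbp1* are high in the astrocyte columns and the other 8 in the microglia columns, and only *Smad3* has every FPI microglia library (119 to 170 CPM) below every sham microglia library (178 to 214 CPM).

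Per kilobase of exon, levels can be set in order within a cell type. In sham microglia *Tgfbr1* was first at 287 ± 10.9 CPM per kb, followed by *Tgfbr2* at 101 ± 1.70. *Smad7* (65.9 ± 11.1) and *Tgfb1* (63.7 ± 4.02) came next and overlapped, as did *Smad3* (35.4 ± 2.95) and *Lrrc33* (32.6 ± 3.59). The lower end was *Tgfbi* at 18.04 ± 6.37, *Smad2* at 5.29 ± 0.701, and *Tgfb2* and *Ltbp1*, both under 1 CPM per kb. In sham astrocytes the order was much flatter: it ran from *Smad7* at 20.5 ± 13.02 over *Tgfb2* at 7.27 ± 2.47 and *Ltbp1* at 6.17 ± 1.88 to *Tgfb1* at 1.59 ± 0.677 CPM per kb, and of the 9 pairs of neighbors in the order only *Tgfbr1* and *Smad2* did not overlap. The order in FPI microglia exchanged *Smad3* and *Lrrc33*, whose libraries overlapped in both conditions.

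RNA carried over from the other cell type was gauged by the level of the 10 microglial markers in astrocyte libraries, which was 0.0195% to 0.520% of their microglial level in sham mice (median 0.0546%). The sham astrocyte level was 1.44% of the microglial level for *Tgfbr1*, 2.49% for *Tgfb1*, 4.35% for *Tgfbr2* and 5.45% for *Lrrc33*, and 14.2% to 47.5% for *Smad3*, *Tgfbi*, *Smad7* and *Smad2*. All 8 were thus above the highest marker. These markers gauge microglial RNA only, and the part of RNA of other cells in the astrocyte libraries was not tested. In the other direction the 10 astrocytic markers stood in sham microglia at 0.431% to 4.08% of their astrocyte level (median 0.796%). *Tgfb2* (3.23%) fell inside that range above its median and *Ltbp1* (0.516%) inside it below the median. In FPI microglia *Tgfb2* stood at 5.47%, above the highest astrocytic marker there (5.13%), and *Ltbp1* at 1.77%, inside the range.

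In the effect of FPI at 7 days, no member was called in microglia (0 of 9 tested by edgeR and 0 by DESeq2, with 1 of 9 at an unadjusted p below 0.05), against 2.35% of the 12143 genes tested and 11.3% at that unadjusted p. *Ltbp1* was under the filter on low counts in microglia and was not tested. The member with the smallest p was *Smad3*. It stood at 203.7, 177.5, 205.2, 214.2 and 180.1 CPM in sham microglia and at 118.8, 125.2, 169.9, 165.6 and 135.8 CPM in FPI microglia. All 5 FPI libraries lay below all 5 sham libraries, as was the case for 1.27% of all genes. The log2 fold change was -0.44 (SE 0.12, 95% interval -0.70 to -0.18), with an adjusted p of 0.0776 in edgeR, which is past the threshold on p and short of the minimum fold change. Without a minimum fold change *Smad3* would be among the 0.404% of genes called lower. Its adjusted p was 0.0198 with DESeq2 and 0.357 in the fit of all 20 libraries, and it ran from 0.0299 to 0.256 when each library was left out, above 0.1 without sham library 1, 2, 3 or 4 or FPI library 1 or 2.

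Neither receptor passed the test in microglia, while the ratio between them differed. *Tgfbr1* stood at 1472, 1261, 1555, 1854 and 1671 CPM in FPI microglia, against 1780 to 1971 CPM in sham microglia. Only FPI library 4 reached the sham range, and the log2 fold change was -0.25 (SE 0.12, 95% interval -0.50 to 0.0066, edgeR adjusted p = 0.461). *Tgfbr2* stood at 892, 829.1, 728, 880 and 935 CPM in FPI microglia, around the sham values of 806 to 844 CPM (log2 fold change 0.059, SE 0.11, interval -0.18 to 0.30, adjusted p = 0.923). As a ratio within each library, which does not depend on scaling, log2 *Tgfbr1* over *Tgfbr2* was 1.13, 1.17, 1.14, 1.24 and 1.204 in sham microglia and 0.72, 0.60, 1.09, 1.08 and 0.84 in FPI microglia. Every FPI library was lower than every sham library (difference -0.31, exact permutation test, two-sided, p = 0.00794, adjusted p = 0.0179 over 9 tests). This unadjusted p is the smallest that 5 against 5 libraries can give. The ratios between sham microglia and sham astrocytes gave the same p and are among the 9 tests, which lowers the adjusted p of the FPI ratios. How often ratios of other gene pairs separate the groups was not counted. Leaving out each library in turn gave differences from -0.37 to -0.25.

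The other members did not pass the test in microglia. *Smad2* was 39.6 to 53.7 CPM in sham and 34.9 to 40.1 CPM in FPI microglia, overlapping through FPI library 5 and sham library 5 (log2 fold change -0.30, SE 0.15, interval -0.60 to 0.0078, edgeR adjusted p = 0.461). The *Smad2* to *Smad3* log2 ratio was -2.08 ± 0.232 in sham and -1.92 ± 0.201 in FPI microglia (exact permutation test, adjusted p = 0.357). *Smad7* had a log2 fold change of -0.044 (interval -0.34 to 0.25), *Tgfb1* of -0.13 (-0.40 to 0.13) and *Lrrc33* of -0.13 (-0.37 to 0.10), intervals that leave out a change past the minimum fold of 0.6. *Tgfb2*, at 0 to 3.86 CPM in all microglia libraries, had an interval of -0.97 to 2.31, so no difference was detectable at this depth. *Tgfbi* was 67.4, 54.8, 43.0, 30.7 and 65.2 CPM in FPI microglia and overlapped the sham libraries (-0.37, SE 0.24, adjusted p = 0.668).

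Microglia libraries 1 to 3 and libraries 4 and 5 carry animal numbers of different styles. The names of the latter end in A, as do those of most astrocyte libraries, while their 10 microglial markers summed to 21900 to 27670 CPM. The values were therefore also read within each set. *Smad3* had log2 ratios of the FPI to the sham mean of -0.50 and -0.39. Its FPI libraries lay below its sham libraries in both sets, which follows from the lack of overlap over all libraries and adds nothing to it. The edgeR adjusted p of *Smad3* with a term for the set was 0.0607. *Tgfbr1* was below in both (-0.36 and -0.14), and *Tgfbr2* overlapped in libraries 1 to 3 (-0.019) and was above in libraries 4 and 5 (0.13). Sets of 3 against 3 and 2 against 2 libraries separate often, and the share over all genes was not counted. Nothing is thus read from a lack of overlap within a set. *Tgfb1*, *Smad2* and *Tgfbi* had FPI below sham in libraries 1 to 3 (-0.32, -0.44 and -0.62) and overlapped in libraries 4 and 5 (0.076, -0.12 and 0.16). In sham microglia *Tgfbi* itself differed between the sets, at 73.8 to 91.8 CPM in the former and 40.6 and 45.1 CPM in the latter. In sham microglia, sums over 10 markers of border macrophages moved the same way, at 1284 to 1356 CPM in libraries 1 to 3 and 861 and 879 CPM in libraries 4 and 5. In FPI microglia the sums were 1148, 942 and 1069 CPM in libraries 1 to 3 and 814 and 787 CPM in libraries 4 and 5. *Tgfbi* did not split this way there, at 67.4, 54.8 and 43.0 CPM and at 30.7 and 65.2 CPM. Of the sham sums, *Stab1* alone held 842 to 971 CPM, while *Mrc1* ran from 11.2 to 270 CPM. The part of border macrophages in the *Tgfbi* values was not tested.

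**Figure D2:**
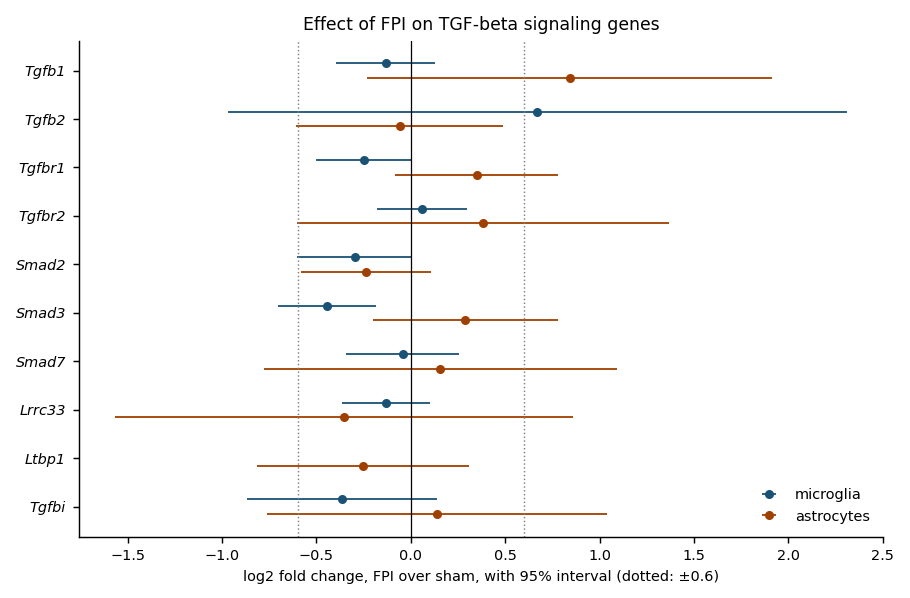
Log2 fold change of FPI over sham for each gene, in microglia (blue) and astrocytes (orange); points are edgeR estimates from 5 against 5 libraries, lines are 95% intervals, and dotted lines stand at the minimum fold change of 0.6 in either direction. *Smad3* in microglia is the only interval that excludes 0 (-0.70 to -0.18), and the astrocyte intervals are the wider ones for every gene tested in both cell types but *Tgfb2*.

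In astrocytes no member was called after FPI (0 of 10 by edgeR and by DESeq2, and 0 of 10 at an unadjusted p below 0.05), against 0.00728% of the 13741 genes tested, which is 1 gene, and 2.32% at that unadjusted p. Every edgeR adjusted p of the members was 0.999. The largest estimate was that of *Tgfb1*, which stood at 6.37, 8.19, 6.69, 5.03 and 13.8 CPM in sham and at 2.78, 8.14, 13.5, 18.3 and 28.3 CPM in FPI astrocytes. FPI library 1 was the lowest of the 10 and libraries 4 and 5 the highest, so the FPI group spanned the sham group (log2 fold change 0.84, SE 0.49, interval -0.23 to 1.92). *Tgfbr1* was 20.6 to 31.5 CPM in sham and 46.9, 31.7, 24.1, 32.3 and 33.4 CPM in FPI astrocytes (0.35, SE 0.20, interval -0.082 to 0.78). *Smad3* was 18.2 to 38.9 CPM in sham and 25.7 to 42.5 CPM in FPI astrocytes (0.29, SE 0.23, interval -0.20 to 0.78). *Smad2* was 18.6 to 25.5 CPM in sham and 16.3 to 21.6 CPM in FPI astrocytes (-0.24, SE 0.16, interval -0.58 to 0.11). These last genes overlapped between sham and FPI, yet their ratio did move. The log2 ratio of *Smad2* to *Smad3* counts was -0.70, -0.075, -0.33, 0.032 and -0.38 in sham and -1.32, -0.57, -0.81, -0.78 and -0.65 in FPI astrocytes, lower after FPI by a difference of -0.53 (exact permutation test, two-sided, p = 0.0238, adjusted p = 0.0429). Sham library 1 was the only sham library inside the FPI range. With FPI libraries 2 and 5, which carry 1 animal number, summed into 1 library (chosen after seeing the data), the difference was -0.59 (exact permutation test, 4 against 5, p = 0.0317, adjusted p = 0.0571), and the adjusted p ran from 0.0286 to 0.0857 when each library was left out.

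The anchors and *Tgfb2* showed no called difference in astrocytes. *Tgfb2* was 20.1 to 57.0 CPM in sham and 30.8 to 49.6 CPM in FPI astrocytes (log2 fold change -0.060, interval -0.61 to 0.49). *Ltbp1* was 36.6 to 87.5 and 34.3 to 76.5 CPM (-0.26, interval -0.82 to 0.31), and *Lrrc33* 2.53 to 13.3 and 1.76 to 11.5 CPM (-0.35, interval -1.57 to 0.86). *Tgfbr2* (0.38), *Smad7* (0.16) and *Tgfbi* (0.14) had estimates smaller than their standard errors of 0.45, 0.43 and 0.42. Of the within-library ratios, *Tgfbr1* to *Tgfbr2* (difference 0.11) and *Tgfb1* to *Tgfb2* (0.57) had adjusted p of 0.865 and 0.509 in the exact permutation tests. In FPI library 1 the receptor ratio stood at 2.18, away from -1.44 to -0.41 in the other FPI astrocyte libraries. Without that library the difference was -0.49 (adjusted p = 0.302) and that of the ligand ratio 1.14 (adjusted p = 0.0952).

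**Figure D3:**
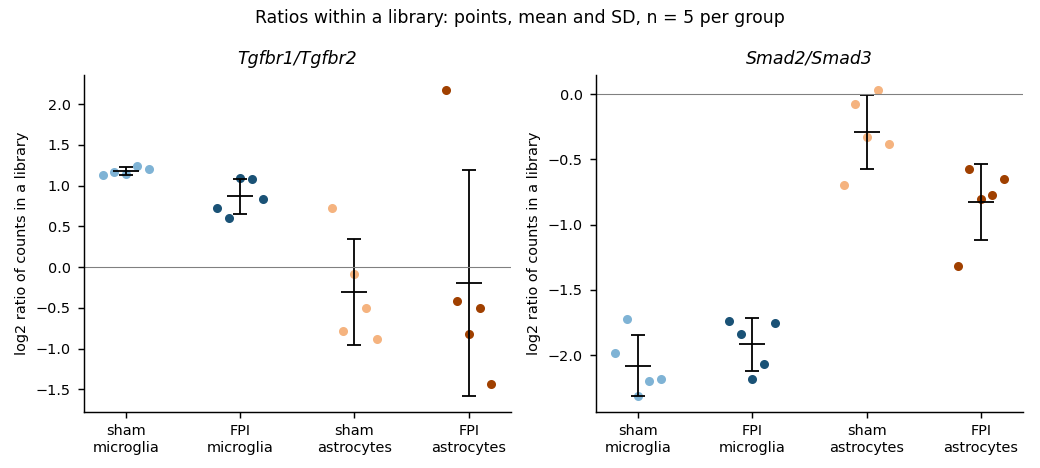
Log2 ratio of *Tgfbr1* to *Tgfbr2* counts (left) and of *Smad2* to *Smad3* counts (right) in each library of the 4 groups; points are libraries, the bar and whiskers are the mean and SD, n = 5. The receptor ratio of FPI microglia (0.60 to 1.09) lies below that of sham microglia (1.13 to 1.24), and FPI astrocyte library 1 stands apart at 2.18.

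Several members varied among the astrocyte libraries along with markers of other cells. *Tgfbr2* was lowest, at 10.3 CPM, in FPI library 1, where the 10 mural cell and fibroblast markers summed to 391 CPM, and highest, at 90.8 CPM, in FPI library 5, where they summed to 9031 CPM. The sham astrocyte libraries followed the same order at their ends, from 18.99 CPM at a sum of 1258 CPM in library 1 to 56.9 CPM at 6544 CPM in library 5. Endothelial markers varied too, with sums over 10 markers of 45.0, 538, 174, 322 and 622 CPM in sham astrocytes 1 to 5, the order of *Tgfbr2* throughout. In FPI astrocytes 1 to 5 these sums were 127, 304, 532, 345.5 and 555.5 CPM, the order of *Tgfbr2* but for libraries 3 and 4. *Tgfb1* was likewise lowest and highest in FPI libraries 1 and 5 (2.78 and 28.3 CPM). *Lrrc33* ran the other way, at 11.5 to 13.3 CPM in the 3 libraries of lowest mural sum and at 1.76 CPM in FPI library 5. *Smad7* moved with oligodendrocyte markers: it was 28.2 CPM in sham library 3, where their sum was lowest at 1933 CPM, and 176 CPM in sham library 4, where it was highest at 20640 CPM. Microglial marker sums were 31.7 to 62.01 CPM in sham and 44.9 to 166 CPM in FPI astrocytes, again highest in FPI library 5. The part of these cells in the members' values was not tested.

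**Figure D4:**
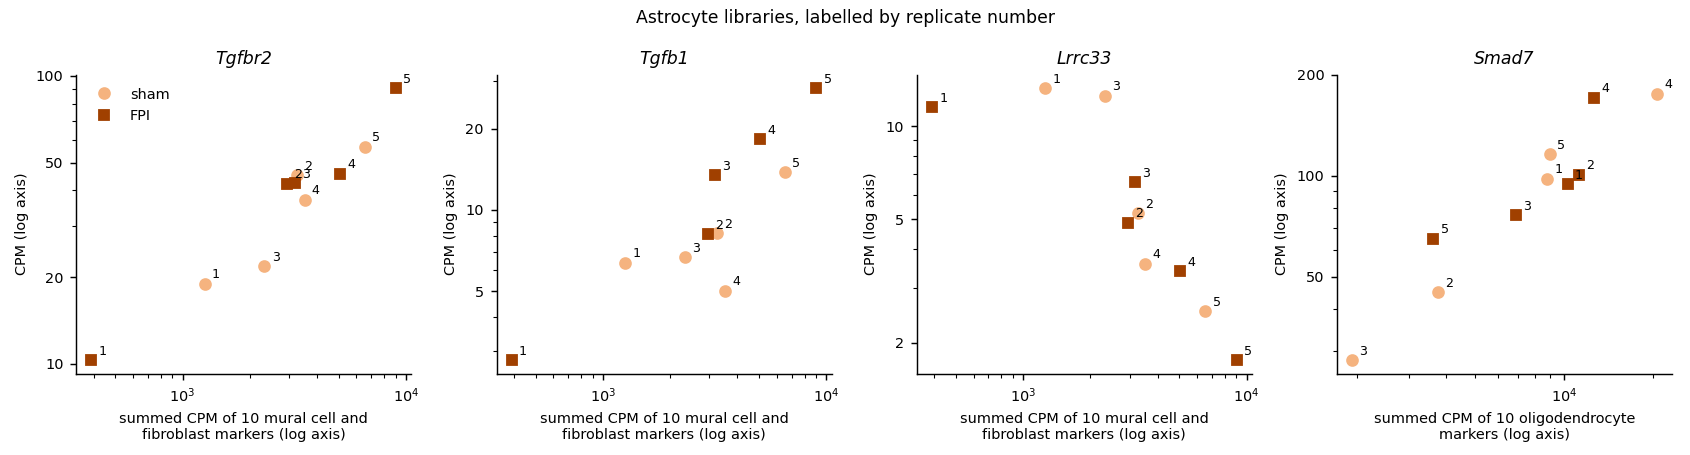
CPM of *Tgfbr2*, *Tgfb1* and *Lrrc33* against the summed CPM of 10 mural cell and fibroblast markers, and of *Smad7* against that of 10 oligodendrocyte markers, in the 10 astrocyte libraries (circles sham, squares FPI, numbers are replicates, all axes log). *Tgfbr2* climbs from 10.3 to 90.8 CPM along the marker sum, *Lrrc33* declines to 1.76 CPM, and *Smad7* climbs from 28.2 to 176 CPM along oligodendrocyte markers.

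Tested directly, no member had a different effect of FPI in microglia and astrocytes (0 of 10 by edgeR and by DESeq2, 2 of 10 at an unadjusted p below 0.05), against 0.199% of 15077 genes called and 7.02% at that unadjusted p. The members below that p were *Smad3*, whose effect was lower in microglia by a log2 difference of -0.72 (SE 0.26, edgeR adjusted p = 0.516), and *Tgfbr1*, at -0.58 (SE 0.24, adjusted p = 0.606). *Tgfb1* had a difference of -0.97 (SE 0.51, adjusted p = 0.757). The opposite signs of *Smad3*, *Tgfbr1* and *Tgfb1* in the cell types were thus not shown to differ.

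For the rest of the pathway, lists of further ligands, receptors, SMAD proteins, regulators, storage and activation genes, target genes and genes of resting microglia were read beside the members. Their counts stand beside the 25.3% of all genes called higher and 35.6% called lower in sham microglia than in sham astrocytes, and nothing is read from a share near these. Between sham microglia and astrocytes, 10 of 11 tested genes of the ligand list were lower in microglia and none higher (median log2 fold change -5.49, against -0.15 over all genes). *Bmp1* on this list encodes a protease and not a ligand. In the fits of single cell types, 1 gene of the list passed the filter on low counts in microglia and 11 in astrocytes. Most thus entered this comparison through the astrocyte libraries, where they are high, so their direction is not read as a result. The lower genes included *Gdf11* (-5.91), *Bmp7* (-5.49) and *Inhbb* (-8.11, with 3 counts over the 5 sham microglia libraries), which encodes an activin subunit. Of 11 receptors 4 were higher and 4 lower, near the shares over all genes, with *Bmpr1b* (-7.97) and *Bmpr1a* (-1.61), receptors of bone morphogenetic proteins (BMPs), and the co-receptor *Tgfbr3* (-3.69) lower and *Acvr1* (0.98) higher in microglia. *Smad9*, a transducer of BMP signals, was lower (-6.67) and *Smad1* higher (1.10), while *Smad4*, the common partner, was at 57.3 ± 5.32 CPM in sham microglia and 56.8 ± 3.42 CPM in sham astrocytes. Of 17 regulators 9 were higher and 4 lower. Those of smallest p were *Pmepa1* (4.63), *Skil* (4.41), *Ldlrad4* (3.09) and *Ski* (2.32), negative regulators of the pathway, a kind that makes up much of this list. Storage and activation genes were mostly lower (13 of 20, 6 higher), with the latent TGF-beta binding protein *Ltbp3* (-4.06) and the activating integrin chain *Itgb8* (-6.81) lower, and the integrin chain *Itgb5* (3.33) and the protease *Mmp2* (3.65) higher. Target genes were lower for 13 of 18, including *Id3* (-5.98) and *Timp3* (-6.08), and higher for 4, including *Junb* (4.93). The 16 genes of resting microglia were all higher, with *P2ry12* (9.55) and *Siglech* (10.98) among the 4 of smallest p. The filter bears on these lists in part. In the microglia and the astrocyte fit it passed 9 and 11 receptors, 4 and 5 SMAD genes, and 16 and 20 storage and activation genes. It passed 15 and 17 target genes and 16 and 11 genes of resting microglia. For a gene that passed in 1 cell type only, the direction is not read as a result. *Acta2*, *Col1a1* and *Col1a2* of the target list and *Dcn* of the storage list are also among the mural cell and fibroblast markers.

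In microglia, FPI moved few genes of these lists. No gene of the ligand list (1 tested), receptor (9), SMAD gene (4), regulator (17) or storage and activation gene (16) was called by edgeR or DESeq2, with 1, 2, 0, 3 and 4 of them at an unadjusted p below 0.05, beside 11.3% of all genes at that p and 2.35% called. The gene tested of the ligand list was *Bmp1*, the protease gene, so no ligand other than the members was tested in microglia. Of 15 target genes, 2 rose. They were *Fn1*, which encodes the matrix protein fibronectin (15.4 to 39.3 CPM in sham and 31.3 to 169 CPM in FPI microglia, log2 fold change 1.84, SE 0.37, adjusted p = 0.00959), and *Cdkn1a*, which encodes the cell cycle inhibitor p21 (1.38 to 10.4 and 7.71 to 22.1 CPM, 1.63, SE 0.47, adjusted p = 0.0914). The list median was -0.014. *Fn1* is also on the list of monocyte markers. The other 8 markers of that list summed to 7.20 to 20.9 CPM in sham and 8.01 to 31.1 CPM in FPI microglia, where 2 of 5 libraries were above the sham range, with 2 of the 9 at 0 counts in each group. Their part in the *Fn1* values was not tested.

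Of 16 genes of resting microglia 2 fell after FPI, where 2.35% of all genes were called in either direction. They were *P2ry13*, an ADP receptor (log2 fold change -0.65, SE 0.17, edgeR adjusted p = 0.0493), and *Slc2a5*, a fructose transporter (-0.63, SE 0.17, adjusted p = 0.0651). *P2ry13* was 596 to 868 CPM in sham and 323 to 572 CPM in FPI microglia, without overlap, and *Slc2a5* was 261 to 356 and 146 to 265 CPM, overlapping narrowly. Of the 16 estimates 13 were below 0 and 3 above, where 48.7% of all genes had an estimate above 0. The list median was -0.21 against -0.0094 over all genes. The calls were sensitive to single libraries: *P2ry13* lost its call without sham library 1, 2 or 3 or FPI library 1, 2 or 3 (adjusted p up to 0.172; without FPI library 3 through the fold change), *Slc2a5* without any of these or sham library 5 (up to 0.219), and *Cdkn1a* without sham library 1, 2, 3 or 5 or FPI library 1, 2 or 5 (up to 0.251). *Fn1* kept its call without any library and lost it with robust empirical Bayes (adjusted p = 0.158) and, as did the other 3 genes, in the fit of all 20 libraries (0.172).

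**Figure D5:**
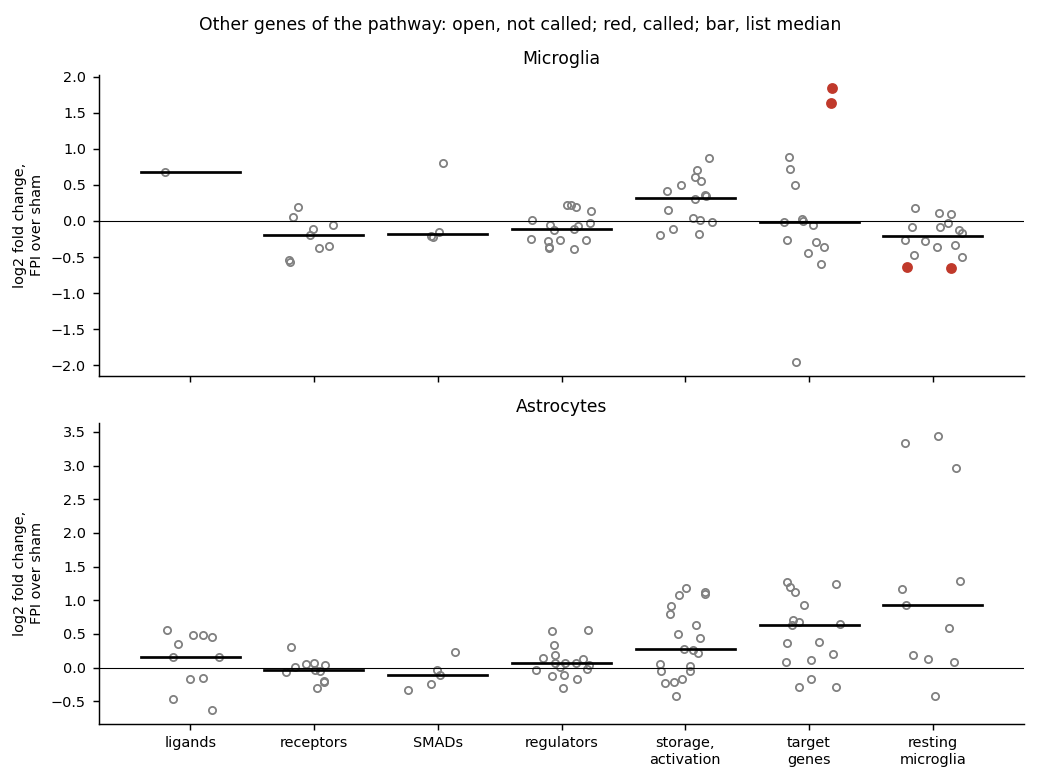
Log2 fold change of FPI over sham for the tested genes of each list in microglia (top) and astrocytes (bottom), with called genes in red and a bar at the list median. The 4 red points are *Fn1* and *Cdkn1a* among target genes and *P2ry13* and *Slc2a5* among genes of resting microglia, all in microglia.

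In astrocytes no gene of these lists was called by edgeR, and DESeq2 called *Csf1r*, *Cx3cr1* and *Fcrls*, 3 of the 11 genes of resting microglia tested there. All 3 are microglial genes, and *Csf1r* and *Cx3cr1* are also among the 10 microglial markers. The other 8 markers summed to 30.2 to 54.7 CPM in sham and 39.9 to 116 CPM in FPI astrocytes, above the sham range in 3 of 5 FPI libraries, and their part in these calls was not tested. *Mmp2* had the higher level in every FPI astrocyte library (4.69 to 15.2 CPM, against 2.26 to 3.79 CPM in sham, as for 0.451% of all genes), with a log2 fold change of 1.18 (SE 0.38, unadjusted p = 0.00853) and an adjusted p of 0.999. In FPI microglia *Mmp2* was 50.4 to 72.8 CPM against 36.5 to 50.8 CPM in sham microglia (0.49, SE 0.15, adjusted p = 0.122).

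Genes whose log2 level ran most closely with a member over the 10 libraries of its main cell type are given as a description. The 10 libraries share their group means and any common technical variation. *Tgfb1* in microglia ran with *Twf2* (Pearson's r = 0.979), *Cmtm6* (0.947) and *Aldh3a2* (0.944). *Tgfbr1* in microglia ran with *Amz2* (0.939), *Btbd6* (0.933) and *Sox4* (0.933), and *Smad3* in microglia with *Gltscr1l* (0.956), *Rab22a* (0.915) and *5830415F09Rik* (0.908). *Tgfb2* in astrocytes ran with *Nr2f1* (0.977), *1700017B05Rik* (0.977) and *Oat* (0.965). An exon of *Tgfb2* overlaps a gene on the opposite strand by 124 bases, and the strand setting of the counting is not given in the sources used here, so reads of that stretch could belong to either gene.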

How the data were processed

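The authors sorted the cells, made stranded total RNA libraries for low input (SMARTer, Pico), and deposited raw counts of reads per gene, whole numbers with no normalization. The submitters' processing notes name bcl2fastq, HISAT2 2.1.0 and featureCounts, and the build mm10 (GRCm38.p6). Groups and replicate numbers were taken from the library titles. Exon lengths came from GENCODE M21, which held 37607 of 39017 identifiers and 99.8% of the counts, and promoter windows from RefSeq (GRCm38.p6), which matched 8 of the 10 members.

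Each cell type was fitted alone for FPI against sham, and all 20 libraries together for the cell types and the difference between effects, with edgeR 4.0.16 in R 4.3.3 (filterByExpr, TMM factors, quasi-likelihood test, Benjamini-Hochberg over all tested genes). The filter left 12143 genes in microglia, 13741 in astrocytes and 15077 in all. Calls were made at an adjusted p under 0.1 and a log2 fold change over 0.6 in either direction, without the fold for the difference between effects. Within-library ratios, with 1 added to each count, were compared by exact permutation (scipy 1.17.1), adjusted over 9 tests. Libraries were treated as independent, and where a mouse gave both cell types p-values of the joint fit may be off. FPI astrocyte libraries 2 and 5, which carry the same animal number, were also counted as separate libraries. If they are of the same mouse, p-values of the astrocyte fit, the joint fit and the ratios in FPI astrocytes may be off. Scripts were tested on simulated data. Alternatives included DESeq2 1.42.0, other filters and factors, a replicate block, and each library left out.

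The members and lists were chosen with earlier results of these data known. Named genes are the members and, in each list and comparison, up to 4 called genes of smallest p and the 2 of highest level in each cell type. *Mmp2* after FPI and the genes called by DESeq2 alone were named after their values were seen. Protein sequences were not used here. Values of some single genes of the lists are not reported here.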

Additional observations from a re-analysis of the deposited data

How the results depend on the processing

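In the contrast of the cell types all 10 members kept their direction and their call under the alternatives run, except that *Tgfb2* and *Ltbp1* were not tested with at least 10 counts in every library (8 of 8 tested were called). After FPI no member was called in microglia under the alternatives, except that 1, *Smad3*, was called with no minimum fold change, and none was called in astrocytes or for the difference between effects. The number of genes called in microglia, 285, was 121 in the fit of all 20 libraries and ran from 177 (without sham library 2 and without FPI library 2) to 423 when each library was left out. In astrocytes 1 gene was called, 23 with DESeq2, 9 with every gene of at least 1 count, 11 with the replicate block, 53 in the fit of all 20 libraries, and 0 with at least 10 counts in every library, with robust empirical Bayes, with FPI libraries 2 and 5 summed and at an adjusted p below 0.05, and 0 to 3 when each library was left out (3 without FPI library 1). Of 9175 and 9185 genes called between the cell types in sham and in FPI mice, at least 10 counts in every library left 4551 and 4467 of 8824 tested. The 30 genes with a different effect became 191 with DESeq2, 1 with at least 10 counts in every library, 114 with the replicate block, 69 and 8 without the astrocyte or the microglia libraries of mice that gave both, and 21 to 48 when each library was left out (48 without FPI astrocyte library 3). *Smad2* then changed sign for the difference between effects, to 0.12 without those astrocyte libraries. In microglia, replicate numbers did not pair the libraries: the correlation of the deviations of same-numbered sham and FPI libraries ran from -0.0304 to 0.0888. In astrocytes this correlation was 0.5, -0.0035, 0.242, 0.551 and 0.354 for replicates 1 to 5. FPI astrocyte libraries 1, 3, 4 and 5 ran closest with the sham library of their own number, and FPI library 2 did not. What same-numbered astrocyte libraries share was not tested. The block gave *Smad3* in microglia -0.45 (edgeR adjusted p = 0.0946) and changed no member's call, while *Cdkn1a* lost its call with it (adjusted p = 0.167).

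With each library left out, estimates that changed sign ran from -0.128 to 0.0362 for *Smad7* in microglia, in astrocytes from -0.239 to 0.0431 for *Tgfb2*, -0.11 to 0.52 for *Smad7*, -0.114 to 0.447 for *Tgfbi* and -0.034 to 0.62 for *Tgfbr2*, and for the difference between effects from -0.11 to 0.66 for *Lrrc33*, -0.56 to 0.053 for *Smad7*, -0.124 to 0.0016 for *Smad2* and -0.575 to 0.0719 for *Tgfbr2*. The astrocyte ratio differences ran from -0.4865 to 0.4167 for *Tgfbr1* over *Tgfbr2* and from 0.2764 to 1.142 for *Tgfb1* over *Tgfb2*. The cause of these changes was not tested. Depth limits *Tgfb2* and *Ltbp1* in microglia, with 68 and 19 counts over the 5 sham libraries.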

Other observations

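Of the 20 storage and activation genes tested in astrocytes, 14 had an estimate above 0 after FPI (median log2 fold change 0.27, 4 at an unadjusted p below 0.05), and in microglia 12 of 16 did (median 0.32, 4 at an unadjusted p below 0.05), none past the adjusted threshold in edgeR. Over all genes tested, 49.2% in astrocytes and 48.7% in microglia had an estimate above 0, and 2.32% and 11.3% an unadjusted p below 0.05. Of 17 target genes tested in astrocytes 14 had an estimate above 0 (median 0.63). All 10 mural cell and fibroblast markers had an estimate above 0 in the same contrast (median 0.51), and *Acta2*, *Col1a1* and *Col1a2* are in both lists.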
